A study of Mus musculus with 5 samples.

Results

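The 6 genes described here are the CC chemokines Ccl3, Ccl4, Ccl5, Ccl6 and Ccl9 and the cytokine Tnf, out of 20355 genes in the deposited tables. They were taken by symbol, and each was present in all 5 tables. They were followed across cell classes of the colonic mesenchyme, the connective tissue under the gut epithelium. The cells came from untreated C57/BL6 mice aged 10 weeks and were profiled by Drop-seq, in which each captured RNA molecule carries a unique molecular identifier (UMI). There were 5 droplet collections of 1 group, 1A and 1B from biological replicate 1 and 2A, 2B and 2C from biological replicate 2, so the comparisons below are between cell classes and not between conditions. EDTA and DTT stripped most of the epithelium first, and Collagenase XI and Dispase then released the cells. How many animals made up a replicate is not stated in the labels, so the spread between replicates may be smaller than that between animals.

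Chemokines are small secreted proteins that draw leukocytes along their gradient through G protein-coupled receptors. Ccl3 and Ccl5 bind the receptor Ccr1, and Ccl4 is a close relative of Ccl3. Ccl9 is a rodent chemokine that acts through Ccr1, and Ccl6 is a closely related rodent chemokine. Tnf is made as a membrane protein that the protease Adam17 sheds, signals through Tnfrsf1a and Tnfrsf1b, and is a classical product of activated macrophages under control of the transcription factor NF-kB.

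The 5 chemokine genes lay in 1 cluster of 138.9 kb on chromosome 11, and Tnf lay on chromosome 17 (GRCm38, GENCODE M21). In order along chromosome 11 these were Ccl5 at chr11:83525778-83530518, Ccl9 at chr11:83572919-83578636, Ccl6 at chr11:83587882-83593087, Ccl3 at chr11:83647844-83649355 and Ccl4 at chr11:83662584-83664683. Ccl9 and Ccl6 were the closest neighbours, 9245 bases apart, followed by Ccl3 and Ccl4 with 13228 bases between them. Ccl4 was on the plus strand and the others on the minus strand, Tnf included (chr17:35199381-35202007). Ccl6 overlapped an antisense transcript, E230016K23Rik, which was not analysed here. None of the 6 genes shared a stretch of 50 bases with another gene in the last 500 bases of its transcript, the end that Drop-seq reads.

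The upstream sequences of Ccl3, Ccl6, Ccl9 and Tnf are shown because these genes had their highest level in the same cell class. The RefSeq promoter table matched these 4 of the 6 genes by symbol, and Ccl4 and Ccl5 are named only. Each line holds the 250 bases before the RefSeq start, 5′ to 3′ on the gene's strand, from GRCm38.p6. Capitals mark matches to the motifs named below and the run that Ccl6 and Ccl9 share.
Ccl3, chr11:83649379-83649628, minus strand: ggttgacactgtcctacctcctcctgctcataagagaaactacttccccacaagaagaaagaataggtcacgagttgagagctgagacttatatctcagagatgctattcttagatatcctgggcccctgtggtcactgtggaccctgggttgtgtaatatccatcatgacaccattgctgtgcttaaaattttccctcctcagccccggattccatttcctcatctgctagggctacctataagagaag
Ccl6, chr11:83593088-83593337, minus strand: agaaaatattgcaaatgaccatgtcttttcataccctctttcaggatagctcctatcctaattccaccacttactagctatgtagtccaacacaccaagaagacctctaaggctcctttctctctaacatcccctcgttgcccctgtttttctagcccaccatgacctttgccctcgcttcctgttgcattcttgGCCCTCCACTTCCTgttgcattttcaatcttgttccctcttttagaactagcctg
Ccl9, chr11:83578637-83578886, minus strand: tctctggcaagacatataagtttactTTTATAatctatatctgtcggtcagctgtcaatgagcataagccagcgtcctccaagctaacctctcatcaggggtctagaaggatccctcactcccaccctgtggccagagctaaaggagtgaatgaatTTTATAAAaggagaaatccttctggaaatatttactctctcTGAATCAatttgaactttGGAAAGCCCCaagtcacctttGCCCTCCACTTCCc
Tnf, chr17:35202008-35202257, minus strand: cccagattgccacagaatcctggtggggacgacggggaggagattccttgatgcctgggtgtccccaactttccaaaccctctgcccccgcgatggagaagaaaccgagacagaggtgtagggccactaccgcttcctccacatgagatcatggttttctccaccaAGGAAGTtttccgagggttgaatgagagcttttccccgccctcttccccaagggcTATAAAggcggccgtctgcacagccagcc

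Ccl6 and Ccl9 shared the 13-base run GCCCTCCACTTCC, which lay 55 to 43 bases before the Ccl6 start and 14 to 2 bases before the Ccl9 start. The longest run shared by any other pair of these 4 sequences had 7 or 8 bases. Both strands were searched for each motif. Tnf held TATAAA from 29 to 24 bases and the ETS-type letters AGGAAGT from 84 to 78 bases before its start. Ccl6 held the ETS-type letters on the opposite strand (ACTTCCT, 48 to 42 bases before its start), overlapping the shared run. Ccl9 held the AP-1 type letters TGAATCA from 53 to 47 bases and, on the opposite strand, a match to the kappaB consensus from 35 to 26 bases before its start. It also held TATAAA from 92 to 87 bases, overlapped by a match on the opposite strand from 94 to 89 bases, and another on the opposite strand from 224 to 219 bases. Over the same 250 bases of 32851 RefSeq promoters, the share with a match on either strand was 12.4% for TATAAA, 7.69% for AGGAAGT, 6.75% for TGANTCA and 3.9% for the kappaB consensus. No match to any of these 4 motifs was found in the Ccl3 window. These matches describe letters in these windows and nothing about binding.

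After barcodes with under 300 genes or more than 10% mitochondrial UMIs and 20 called doublets were left out, 5985 cells remained, with medians of 1330 UMIs and 757 genes. Their collections held 1636550 to 3345732 UMIs each over all deposited barcodes. Cells were grouped into 10 classes of testable size, named from marker genes and therefore macrophage-like, dendritic-cell-like and so on, with the shorter names used from here. There were 477 macrophages, 125 dendritic cells, 390 T, NK or innate lymphoid cells (T/NK/ILC) and 228 B cells. The 6 other classes were 3118 fibroblasts, 576 blood endothelial, 165 lymphatic endothelial, 238 pericyte, 248 smooth muscle and 298 enteric glial cells, called stromal classes below. Too few for a test were 42 plasma, 27 neuron, 22 epithelial and 31 unnamed cells. Of the retained cells, 1 had 3 or more UMIs of the 4 neutrophil markers. The tables held 2 of 4 mast cell and 1 of 3 eosinophil markers, with 2 and 12 UMIs in all. There were 10 barcode sequences that occurred in 2 collections.

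Messages for the 6 genes came mainly from immune cells, which were 21.1% of the retained cells (1262 cells, plasma cells included). They held 95% of the Tnf UMIs (95% exact interval 92.7 to 96.8%), 94.5% for Ccl4, 93.5% for Ccl5, 92.6% for Ccl9, 89.7% for Ccl6 and 89.6% for Ccl3. Macrophages alone held between 80.7% (Tnf) and 84.3% (Ccl9) of the UMIs of every gene other than Ccl5. For Ccl5 they held 11%, against 71.9% in the T/NK/ILC class. Intervals here and below cover counting error only.

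**Figure D1:**
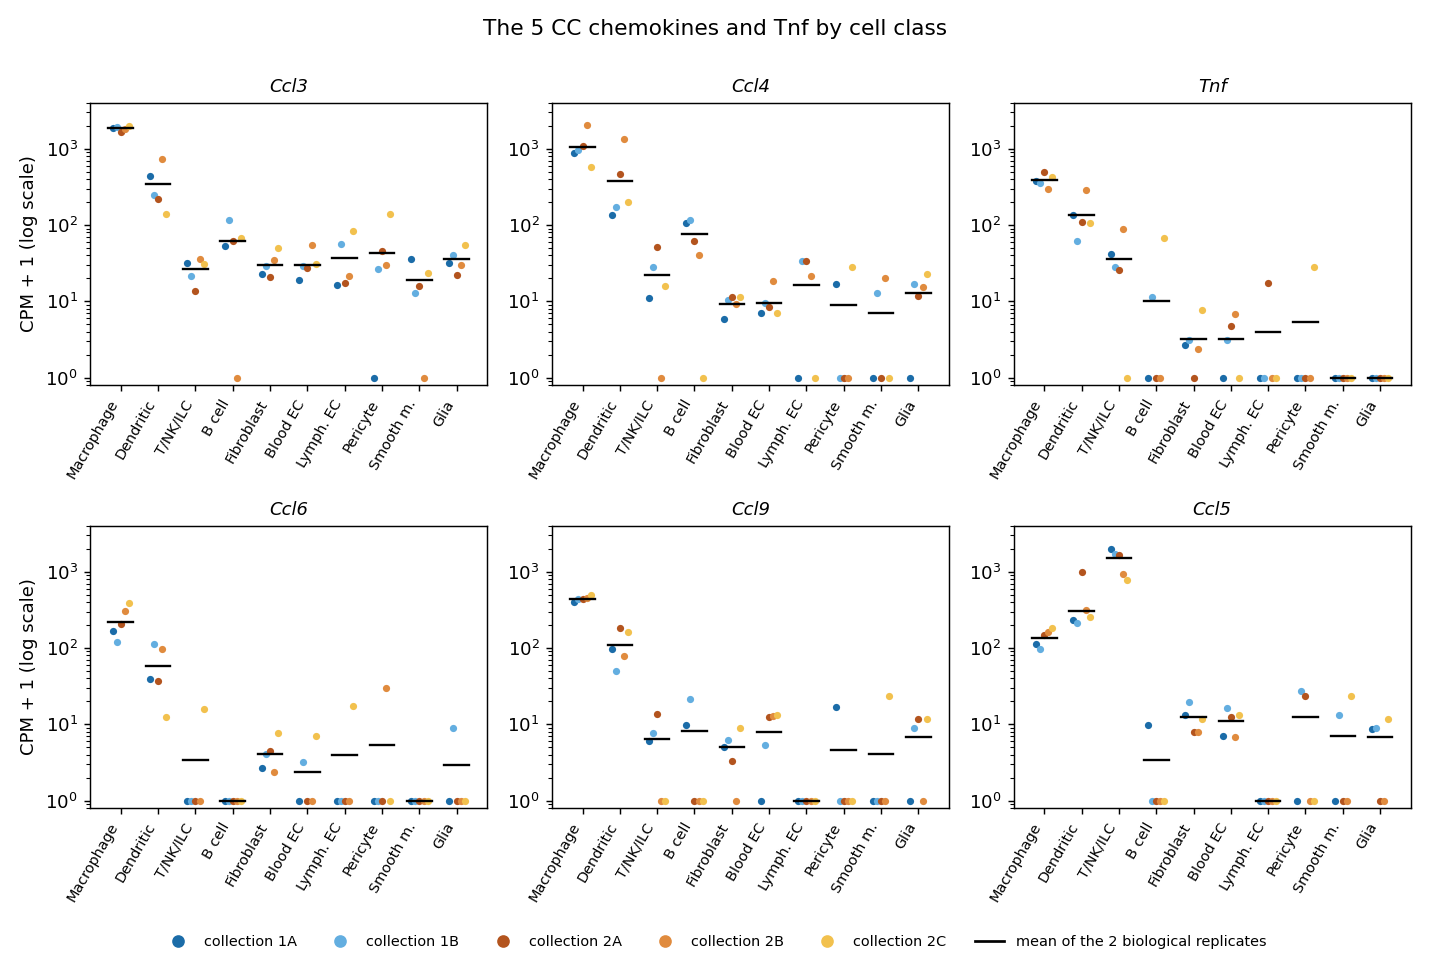
Level of each of the 6 genes in 10 cell classes, in CPM + 1 on a log axis (CPM, UMIs of the gene per 1000000 UMIs of the class). Points are the 5 collections and bars the mean of the 2 biological replicates. Ccl3, Ccl4, Tnf, Ccl6 and Ccl9 are highest in macrophages, and Ccl5 in the T/NK/ILC class.

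Ccl3, a chemoattractant of monocytes and T cells, was the most abundant of the 6 messages. Macrophages had 1847, 1907, 1664, 1811 and 1972 CPM in collections 1A, 1B, 2A, 2B and 2C, where CPM is the number of UMIs of the gene per 1000000 UMIs of the class. These 5 values lay close together and above every other class. Dendritic cells had 443, 246, 217, 735 and 139 CPM, B cells 0 to 114 CPM, and T/NK/ILC cells 12.5 to 34.7 CPM. Macrophages averaged 1848 ± 40.7 CPM, against 347 ± 13.2 CPM in dendritic cells, 61.0 ± 28.2 CPM in B cells and 25.3 ± 1.21 CPM in T/NK/ILC cells (SD, n = 2 biological replicates). Macrophages exceeded the average of the 9 other classes on the log scale by 5.64 ± 0.11 on the log2 scale (SE, adjusted p = 3.43e-167). They exceeded dendritic cells by 2.6 ± 0.16 (adjusted p = 2.65e-43), and dendritic cells exceeded B cells by 2.51 ± 0.33 (adjusted p = 6.88e-12). The T/NK/ILC class was below the average of the other 9 classes on the log scale by -1.49 ± 0.37 (adjusted p = 3.46e-04), a call that was lost when separate UMIs gave the clusters and the sums (adjusted p = 0.133). Its difference from B cells was -1.31 ± 0.53 (adjusted p = 0.075), so the lower end of the order was not resolved.

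Ccl4, the neighbour of Ccl3 and an attractant of monocytes and T cells, followed the same order with more spread. Macrophages had 881, 966, 1073, 2074 and 569 CPM in the 5 collections. Dendritic cells had 135, 172, 470, 1353 and 197 CPM, so the collections of the 2 classes overlapped, and 2B was high in both. Macrophages averaged 1042 ± 169 CPM, against 377 ± 320 CPM in dendritic cells, 75.3 ± 48.4 CPM in B cells and 20.9 ± 4.94 CPM in T/NK/ILC cells. They exceeded the mean of the other classes by 5.92 ± 0.16 (adjusted p = 3.53e-117) and dendritic cells by 1.77 ± 0.22 (adjusted p = 1.0e-12).

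Tnf also stood highest in macrophages. Macrophages had 375, 353, 500, 299 and 428 CPM in the 5 collections, each above every dendritic cell value (135, 61.4, 108, 290 and 104 CPM). Their mean was 391 ± 38.2 CPM, against 133 ± 42.6 CPM in dendritic cells, 34.5 ± 0.465 CPM in T/NK/ILC cells and 9.23 ± 6.32 CPM in B cells. The difference of macrophages from dendritic cells was 1.77 ± 0.27 (adjusted p = 7.87e-09), and that from T/NK/ILC cells was 3.72 ± 0.32 (adjusted p = 3.60e-25). T/NK/ILC cells were above the average of the other 9 classes on the log scale (adjusted p = 2.38e-05). Their difference from B cells, which held 2 Tnf UMIs, was 2.35 ± 0.90 and missed the threshold (adjusted p = 0.058).

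Ccl9 and Ccl6, the 2 rodent chemokines whose genes are neighbours, had most of their UMIs in macrophages. For Ccl9, macrophages had 395, 438, 432, 453 and 488 CPM, against 96.4, 49.1, 181, 77.3 and 162 CPM in dendritic cells, with no overlap. For Ccl6, macrophages had 168, 118, 204, 307 and 385 CPM, against 38.6, 111, 36.1, 96.7 and 11.6 CPM in dendritic cells. The lowest macrophage value of Ccl6 (1B) was just above the highest dendritic cell value (also 1B), and the macrophages of replicate 2 were all above those of replicate 1. Macrophages exceeded dendritic cells by 2.25 ± 0.29 for Ccl9 (adjusted p = 1.81e-12) and by 2.09 ± 0.37 for Ccl6 (adjusted p = 6.00e-07). T/NK/ILC cells held 3 Ccl9 UMIs and 1 Ccl6 UMI among 390 cells, and B cells held 3 Ccl9 UMIs and none of Ccl6. A count of 0 allows up to 10.6 CPM of Ccl6 in B cells.

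Ccl5, a ligand of Ccr1 that T and NK cells are known to secrete, had another order. T/NK/ILC cells had 1969, 1709, 1666, 920 and 785 CPM in collections 1A, 1B, 2A, 2B and 2C. Dendritic cells had 231, 209, 975, 309 and 255 CPM, and macrophages 112, 97.4, 148, 161 and 184 CPM. The T/NK/ILC values of 2B and 2C fell below the dendritic cell value of 2A, and the other values of the 2 classes did not cross. Means were 1511 ± 488 CPM in T/NK/ILC cells, 307 ± 121 CPM in dendritic cells and 135 ± 42.6 CPM in macrophages, and B cells held 1 UMI. Dendritic cells lay below T/NK/ILC cells by -2.24 ± 0.23 (adjusted p = 3.18e-18). Macrophages lay below T/NK/ILC cells by -3.22 ± 0.22 (adjusted p = 3.11e-35). Macrophages also lay below dendritic cells by -0.97 ± 0.26 (adjusted p = 0.00171). This call was lost with DESeq2 (adjusted p = 0.0901), without collection 2A (adjusted p = 0.0866) and with split UMIs (adjusted p = 0.185). It was also lost without the cells in the top 5% of doublet scores (adjusted p = 0.533).

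Against the average of the 9 other classes on the log scale, all 6 genes were called higher in macrophages, where 28.6% of the 6932 genes tested were called higher and 14.8% lower. All 6 were also called higher in dendritic cells (background 20.5% higher and 12.2% lower). The Ccl6 call there rested on 20 UMIs and was lost with split UMIs (adjusted p = 0.200). In T/NK/ILC cells 2 were called higher, Ccl5 and Tnf (background 23.7%), and 1 lower, Ccl3 (background 16.1%). In B cells Ccl4 alone was called higher (background 17.0%) and none lower (background 17.9%). None was called higher in a stromal class by edgeR's quasi-likelihood test, where the background was 31.4% in fibroblasts, 28.7% in blood and 20.1% in lymphatic endothelium, 14.4% in pericytes, 20% in smooth muscle and 24.0% in glia. Lower calls numbered 2 in fibroblasts (962 of all 6932 genes), 2 in blood endothelium (1160) and 3 in lymphatic endothelium (932). They numbered 1 in pericytes (485), 2 in smooth muscle (658) and 0 in glia (903). Ccl3 was among them in fibroblasts, blood and lymphatic endothelium and smooth muscle, on 6 UMIs (smooth muscle) to 133 UMIs (fibroblasts). Its lower call was therefore not particular to T/NK/ILC cells. Ccl6, Ccl9 and Tnf passed the filter on low counts through macrophages and dendritic cells alone, so the counts in those 2 classes are a description. Across the 6 pairs of immune classes, macrophages were higher for 5 genes and lower for Ccl5 against dendritic cells (background 15.9% higher and 9.65% lower). The same split of 5 and 1 held against T/NK/ILC cells (background 23.0% and 18.4%), and all 6 genes were higher than in B cells (background 23.1% higher and 12.1% lower). Dendritic cells were higher for 5 genes and lower for Ccl5 against T/NK/ILC cells (background 12.2% and 11.4%) and higher for all 6 against B cells (background 12.9% and 7.08%). Of these calls, Tnf against T/NK/ILC cells was lost without the highest doublet scores and with split UMIs, and the 6 against B cells became 3 under either. Ccl6 against T/NK/ILC cells was also lost with split UMIs. T/NK/ILC cells were higher than B cells, which held 1 Ccl5 UMI, for Ccl5 (8.80 ± 0.50, background 10.3%) and lower for Ccl4 (-2.07 ± 0.54, background 5.61%).

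In single macrophages, Ccl3 was widespread and Ccl5 rare. With each cell thinned to 500 UMIs and 13 shallower cells left out, 50.4% of 464 macrophages had a Ccl3 UMI (95% exact interval 45.8 to 55.1%). The shares were 21.3% for Ccl4, 20% for Ccl9, 14.2% for Tnf, 10.8% for Ccl6 and 3.23% for Ccl5. In 3006 thinned fibroblasts, set beside these as background, the shares were 1.56% for Ccl3, 0.366% for Ccl4, 0.599% for Ccl5, 0.233% for Ccl6, 0.200% for Ccl9 and 0.0665% for Tnf. Unthinned, at a median of 1715 UMIs in macrophages and 1286 in fibroblasts, the macrophage shares were 73.2% for Ccl3, 40.3% for Ccl9, 37.7% for Tnf, 36.9% for Ccl4, 24.7% for Ccl6 and 5.03% for Ccl5. Among T/NK/ILC cells 24.2% of 376 thinned cells had a Ccl5 UMI.

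Ccl4 and Ccl9 had similar shares of positive macrophages but differed in how their UMIs were spread over cells. At least 50% of the Ccl4 UMIs of all macrophages were in 20 of 477 cells, and 1 cell held 77 of 1037 UMIs. The same share of the Ccl3 UMIs took 66 cells, of Ccl9 46, of Tnf 45, of Ccl6 29 and of Ccl5 3 cells. For Ccl5 in T/NK/ILC cells it took 28 of 390 cells, and the highest cell held 30 UMIs. In collection 2B, the collection with the highest macrophage Ccl4 level, 1 cell held 77 of 284 UMIs.

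**Figure D2:**
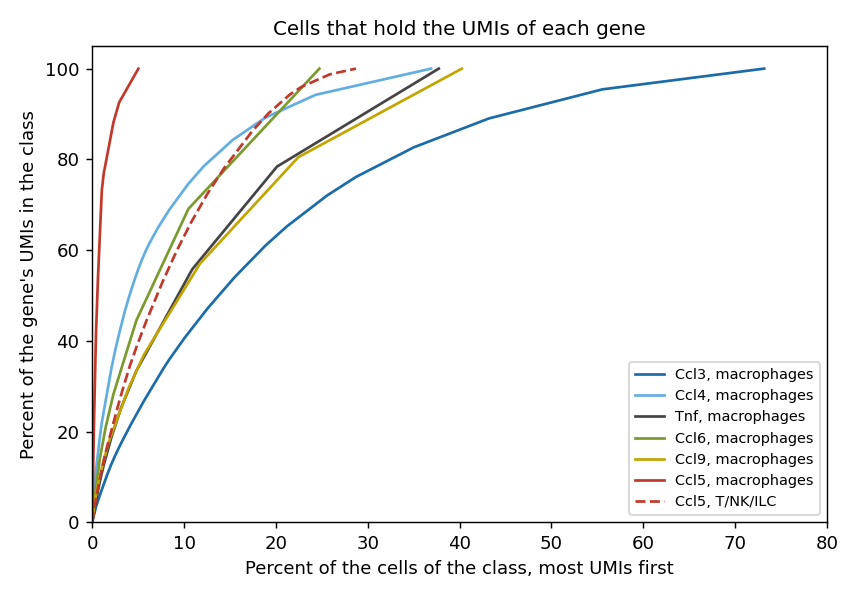
Cumulative percent of a gene's UMIs in a class (vertical axis) against the percent of the cells of that class, ranked from most UMIs to fewest (horizontal axis). Solid lines are macrophages and the dashed line is Ccl5 in the T/NK/ILC class. Ccl3 UMIs reach across 73.2% of macrophages, whereas all Ccl5 UMIs of macrophages are in 5.03% of them.

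In macrophages Ccl4 was found more often beside Ccl3, and the other pairs examined had overlapping intervals. After thinning to 500 UMIs, a Ccl4 UMI was found in 31.2% of 234 macrophages with a Ccl3 UMI (interval 25.3 to 37.6%), against 11.3% of 230 without one (7.52 to 16.1%). A Ccl6 UMI was found in 18.3% of 93 macrophages with a Ccl9 UMI (11 to 27.6%), against 8.89% of 371 without one (6.20 to 12.3%), with overlapping intervals. A Tnf UMI was found in 17.9% of macrophages with a Ccl3 UMI (13.3 to 23.5%) and in 10.4% of those without (6.80 to 15.1%). For Ccl9 the shares were 17.9% with a Ccl3 UMI and 22.2% without. Cells of 1 collection are not replicates, so these shares were not tested.

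Macrophages fell into 2 subclusters when the immune cells were clustered again without the 6 genes. Subcluster 1 (154 cells, median 2918 UMIs) was led by genes that include H2-M2, Mmp13 and Mmp12, the last 2 being matrix metalloproteinases. Subcluster 2 (319 cells, median 1317 UMIs) was led by genes that include Pf4, F13a1 and Mrc1. Pf4 was also among the leading genes of subcluster 1, and Mrc1 was at 384 CPM in subcluster 1 and 1387 CPM in subcluster 2. Other markers of the same list were nearly absent from subcluster 1. F13a1 was at 3.94 CPM there and 606 CPM in subcluster 2, and Cd163 at 0 and 148 CPM. Subcluster 1 thus carried some genes of resident tissue macrophages and little or nothing of others. Ccl3 averaged 1969 ± 194 CPM in subcluster 1 and 1733 ± 182 CPM in subcluster 2 (0.17 ± 0.17, adjusted p = 0.663). Ccl4 averaged 1123 ± 234 CPM in subcluster 1 and 1079 ± 267 CPM in subcluster 2 (0.06 ± 0.19, adjusted p = 0.917), and Tnf 461 ± 61.7 CPM and 347 ± 67.3 CPM (0.41 ± 0.24, adjusted p = 0.368). None of these 3 passed the threshold. Within collections, Tnf was higher in subcluster 1 in 5 of 5 and Ccl6, described next, was lower in 5 of 5.

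Ccl9 differed between the subclusters. Subcluster 1 had 256 ± 66.1 CPM, against 616 ± 82.1 CPM in subcluster 2, and none of the 5 collections of subcluster 1 reached any of subcluster 2. The difference was -1.25 ± 0.24 (adjusted p = 1.74e-05), in a comparison in which 5.04% of 5079 genes were called lower. Ccl6 averaged 156 ± 68.2 CPM in subcluster 1 and 285 ± 150 CPM in subcluster 2, a difference of -0.87 ± 0.31 that missed the threshold (adjusted p = 0.058), with adjusted p from 0.0355 with another scaling and 0.0436 without collection 2C. Ccl5 averaged 206 ± 83.3 CPM in subcluster 1 and 65.2 ± 20.5 CPM in subcluster 2 (1.61 ± 0.32, adjusted p = 2.37e-05, background 4.04% higher). That call rested on few cells, since 7 cells of subcluster 1 held 96 of its 102 Ccl5 UMIs and the other cells had 12.4 CPM, while 4 cells of subcluster 2 held 22 of 33 and the others had 22.7 CPM. It was lost without collection 2A (1.19, adjusted p = 0.0585) and without collection 2C (0.92, adjusted p = 0.0687).

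**Figure D3:**
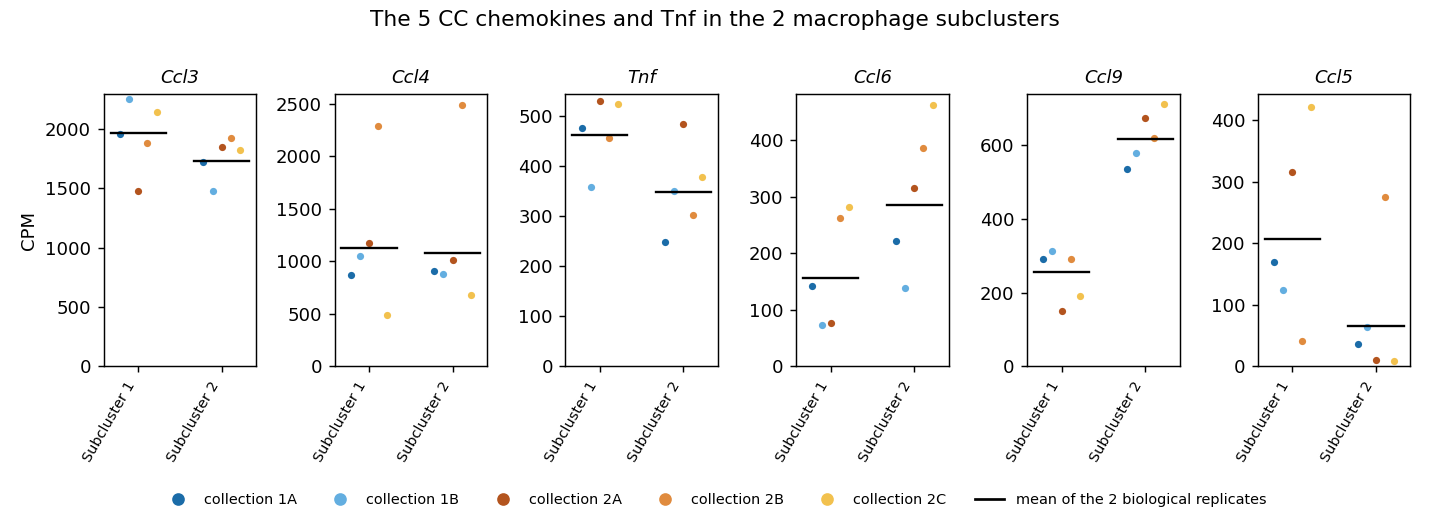
CPM of the 6 genes in macrophage subcluster 1 (left in each panel, 154 cells) and subcluster 2 (right, 319 cells). Points are the 5 collections and bars the mean of the 2 biological replicates. The 5 points of Ccl9 are all lower in subcluster 1, and those of the other genes overlap between the subclusters.

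Several other inflammatory genes differed between the subclusters by larger folds than Ccl9. Of the other CC chemokines, 3 of 7 tested were lower in subcluster 1, where 5.04% of all genes were called lower and 4.04% higher. Ccl2 had 87.3 ± 49.6 CPM in subcluster 1 and 1035 ± 453 CPM in subcluster 2, and Ccl7 had 113 ± 37.4 CPM and 1747 ± 782 CPM, both being monocyte attractants. Ccl8 had 47.5 ± 54.9 CPM in subcluster 1 and 177 ± 4.16 CPM in subcluster 2. Among 6 other inflammatory cytokines, Il1b was higher in subcluster 1 (1494 ± 162 CPM, against 138 ± 5.38 CPM), as was Il12b (55.6 ± 23.2 CPM, against 2.31 ± 3.26 CPM). The neutrophil attractant Cxcl2 was lower in subcluster 1 (5283 ± 319 CPM, against 8834 ± 642 CPM). The monocyte receptor Ccr2 was higher in subcluster 1 (56.0 ± 13.1 CPM, against 11.4 ± 9.55 CPM), and it was the only one of 6 tested receptors to be called. Of 10 NF-kB genes, Rel was called higher. Immediate-early and heat-shock genes, which dissociation of tissue can raise, made up 1.28% of UMIs in subcluster 1 and 1.62% in subcluster 2. Of these 16 genes, 5 were called lower in subcluster 1 and 0 higher. Their part in the differences between the subclusters was not tested.

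Within the T/NK/ILC class Ccl5 was in the T cell subcluster, which was led by Trbc2 and Il22. Its 300 cells averaged 1969 ± 564 CPM, against 25.2 ± 16.7 CPM in the 90 cells of the group 2 innate lymphoid subcluster (6.25 ± 0.43, adjusted p = 1.24e-43). No collection overlapped, and 3.92% of 5079 genes were called higher and 5.81% lower in this comparison. Tnf averaged 43.6 CPM in the T cell subcluster and 6.68 CPM in the group 2 innate lymphoid subcluster (2.23 ± 1.15, adjusted p = 0.245), where it rested on 1 UMI. At a finer clustering the 220 remaining T cells had 2630 ± 679 CPM of Ccl5, and 80 cells led by the interleukin gene Il22 had 24.0 CPM.

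The T/NK/ILC cells richest in Ccl5 differed from those without it in several lymphocyte genes. The 89 cells with at least 3 Ccl5 UMIs, a limit set after the values were seen, had 282 CPM of the chemokine Xcl1, against 66.5 CPM in the 278 cells with none. The granule gene Nkg7 had 224 CPM in these 89 cells and 69.2 CPM in the 278, and the receptor gene Klrk1 376 CPM and 146 CPM. Only 20 of the 89 cells had an Nkg7 UMI. The lectin-like receptor gene Klrb1b went the other way, with 173 CPM in the 89 cells and 274 CPM in the 278. Conversely, Il22 gave 1 UMI in the 89 cells and 270 UMIs in the 278, Ccr7 gave 4 and 98 UMIs, and Gata3 2 and 106 UMIs. Cd8a gave 3 UMIs in the 89 cells and 1 UMI in the 278. Of the 8 listed cytotoxic genes, 2 passed the filter on low counts between classes and 3 between subclusters, through the cells in which they were high, so their calls are no support and the levels are a description. In the T cell subcluster Nkg7 had 150 ± 12.8 CPM, Xcl1 154 ± 39.4 CPM and Ifng 76.5 ± 33.3 CPM, each with 0 UMIs in the group 2 innate lymphoid cells. The group 2 innate lymphoid cells instead held Ccl1 (276 ± 107 CPM), which had no UMI in the T cell subcluster.

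Ccl5 outside T cells sat in a few cells. In macrophages 11 of 477 cells held 118 of 134 Ccl5 UMIs, and the remaining cells had 16.6 CPM. Those 11 cells came from all 5 collections. C1qa was present in 11 of 11 of them, and the T cell genes Cd3e and Trbc2 and the granule gene Nkg7 were at 0, whereas Cd3d gave 3 UMIs, Cd3g 2 and Trac 1. In CPM, Cd3d was at 96.0 in the 11 cells and 1.07 in the 453 macrophages with no Ccl5 UMI, Cd3g at 64.0 and 0, and Trac at 32.0 and 0. The part of T cell RNA in the Ccl5 of these cells was not tested. In dendritic cells 8 of 125 cells held 99 of 106 Ccl5 UMIs, and the remaining cells had 21.1 CPM. Cd3e, Cd3d, Cd3g, Trac, Trbc2 and Nkg7 were all at 0 in the 8. Of the 8, 2 had 2 or more UMIs of the whole T cell marker list and 3 of the macrophage list. Among the 117 other dendritic cells, 36 and 32 did. Among plasma cells 1 cell held 19 of 24 Ccl5 UMIs.

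The dendritic cell class, led by genes of antigen presentation and Ccr7, was the second highest of the 10 classes for all 6 genes by mean CPM, and it also carried macrophage messages. The 9 macrophage markers in the tables summed to 1620 to 2359 CPM in dendritic cells over the 2 replicates, against 7518 to 8419 CPM in macrophages, and Mertk was at 0 in dendritic cells. Lyz2, which dendritic cells also express, made 1565 ± 295 CPM of that sum. Single cells weighed heavily on the values of this class. For Ccl4, 1 cell of collection 2B held 50 of 128 UMIs, and the other dendritic cells had 226 CPM. For Ccl3, 1 cell of collection 1A held 37 of the 46 UMIs of that collection.

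**Figure D4:**
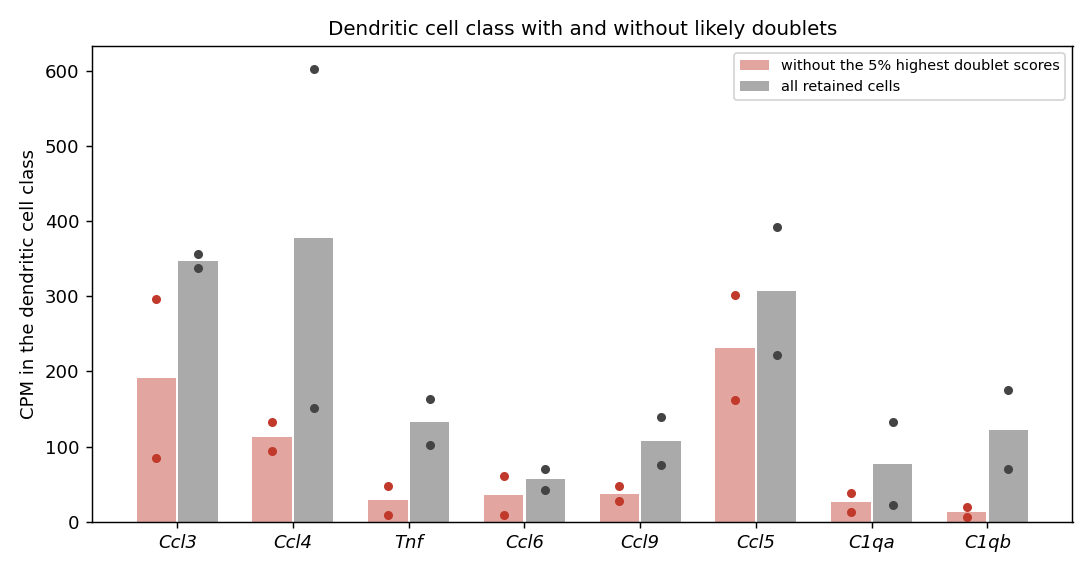
CPM of the 6 genes and of the macrophage genes C1qa and C1qb in the dendritic cell class, without cells in the top 5% of doublet scores (red, 107 cells) and with all retained cells (grey, 125 cells). Bars are means and points the 2 biological replicates. Every bar is lower without the high-scoring cells, and Ccl5 keeps 232 CPM of 307 CPM.

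The doublet caller marked only 0.333% of barcodes, so doublets may remain among the retained cells, and their number is not known. When the cells in the top 5% of doublet scores were also left out and the rest clustered again, there were 107 dendritic cells, and C1qb was at 12.8 CPM, against 123 CPM in all 125. In these 107 cells Tnf was at 28.3 ± 26.7 CPM, against 133 CPM in all 125. Ccl9 was at 37.1 CPM (all cells 107 CPM), Ccl4 at 113 CPM (377 CPM), Ccl3 at 191 CPM (347 CPM), Ccl6 at 35.1 CPM (56.2 CPM) and Ccl5 at 232 CPM (307 CPM). All 6 genes were still called higher than the average of the other classes. The difference in Tnf between dendritic and T/NK/ILC cells was 1.95 ± 0.42 with all cells (adjusted p = 6.68e-05) and -0.048 without these cells (adjusted p = 0.997), and 0.0051 with split UMIs (adjusted p = 1). How much of the dendritic cell level came from macrophage RNA was not tested further.

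B cells carried a low level of Ccl4 in few cells. Their collections had 106, 114, 60.7, 39.8 and 0 CPM, from 26 UMIs in all, and 8 of 228 cells held 24 of them. None of these 8 cells had 2 or more UMIs of macrophage or of T cell markers. Among the other 220 B cells, 2 had that many of macrophage and 11 of T cell markers, so none in 8 says little. The source of this Ccl4 was not tested. The fitted difference from the mean of the other classes was 1.66 ± 0.40 (adjusted p = 3.11e-04). It was not called when at least 500 genes per barcode were required (0.54, adjusted p = 0.491).

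In the 6 stromal classes levels were low for each gene. Ccl3 ranged from 18.1 to 39.0 CPM over these classes, Ccl4 from 6.03 to 15.3 CPM, Ccl5 from 0 to 11.7 CPM, Ccl9 from 0 to 5.85 CPM, and Ccl6 and Tnf from 0 to 3.90 CPM. For Ccl3 these were 0.979 to 2.11% of the macrophage level, and for the macrophage genes the shares were 0.803 to 2.17% for Lyz2, 0.668 to 1.55% for C1qb and 0 to 0.596% for C1qa. The Ccl3 shares overlapped those of Lyz2 and C1qb and lay above those of C1qa. How much of the stromal level was RNA from other cells was not tested. The Ccl3 level of T/NK/ILC cells, 25.3 CPM, lay within the stromal range. A count of 0 allowed up to 7.67 CPM of Ccl5 and of Ccl9 in lymphatic endothelium, 9.04 CPM of Ccl6 and of Tnf in smooth muscle, and 5.85 CPM of Tnf in glia. In the 22 epithelial cells, too few for a test, there were 9 Ccl6 UMIs in 3 cells, 8 Tnf UMIs in 3 cells and 5 Ccl9 UMIs in 4 cells. Their means were 85.9 ± 122 CPM for Ccl6 and 140 ± 117 CPM for Tnf, against 56.2 and 133 CPM in dendritic cells. For Ccl9 the mean was 60.5 ± 22.5 CPM, against 107 CPM in dendritic cells.

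Most receptors of these ligands were called higher in macrophages and in dendritic cells, with Tnfrsf1a and Ackr2 apart. Of 7 receptor genes tested, 5 were called higher in macrophages, with 0 lower and a median log2 difference of 4.0, against 28.6% higher and a median of 0.012 over all genes. The same 5 higher and 0 lower were counted in dendritic cells (median 3.05, 20.5% of all genes higher). A gene could pass the filter on low counts through the classes in which it was high. The counts of this list and of the lists below are therefore a description. Ccr1, the receptor of Ccl3, Ccl5 and Ccl9, had 427 ± 32.5 CPM in macrophages, 256 ± 20.3 CPM in dendritic cells and 5.34 ± 0.652 CPM in T/NK/ILC cells. The Tnf receptor Tnfrsf1b had 180 ± 12.9 CPM in macrophages and 8.72 ± 4.52 CPM in fibroblasts. The other Tnf receptor, Tnfrsf1a, had 89.5 ± 9.91 CPM in macrophages and 140 ± 0.931 CPM in fibroblasts and was not called in macrophages (adjusted p = 0.785). Ackr2, a scavenger that degrades inflammatory CC chemokines, had 80.6 ± 14 CPM in lymphatic endothelium and 1.01 ± 1.42 CPM in macrophages, and it gave 32 UMIs in lymphatic endothelium and 0 in dendritic, T/NK/ILC and B cells. It was called higher in lymphatic endothelium (adjusted p = 5.34e-17).

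Of 5 tested genes of Tnf shedding and receptor signalling, 3 were called higher and 0 lower in macrophages (median 0.95), where 28.6% of all genes were called higher. The same count of 3 and 0 was found in enteric glia (median 1.31), with 2 and 0 in dendritic cells and 2 and 1 in T/NK/ILC cells, so the count was not particular to macrophages. Adam17, the sheddase, had 220 ± 21.4 CPM in macrophages, 43.0 ± 7.39 CPM in dendritic cells and 49.1 ± 0.371 CPM in T/NK/ILC cells, and the other called genes in macrophages were Birc3 and Traf2. Of 10 NF-kB factors and feedback genes, 9 were called higher in macrophages and 0 lower (median 1.69), with Rela the exception (0.18 ± 0.20, adjusted p = 0.544). The same list had 9 higher and 0 lower in T/NK/ILC cells (background 23.7% and 16.1%). It had 8 and 0 in dendritic cells (background 20.5% and 12.2%), and 3 and 5 in B cells (background 17.0% and 17.9%). Tnfaip3, an inhibitor that NF-kB induces, had 433 ± 69.4 CPM in macrophages and 740 ± 11.7 CPM in T/NK/ILC cells.

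Other inflammatory messages were also high in macrophages. Of 6 other cytokines, 5 were called higher in macrophages (28.6% of all genes) and all 6 in dendritic cells (20.5% of all genes). Cxcl2 had 6874 ± 560 CPM in macrophages and 1728 ± 90.5 CPM in dendritic cells, whereas Il1b had 808 ± 228 CPM in macrophages and 2437 ± 368 CPM in dendritic cells. Of 7 tested other CC chemokines, 4 were called higher in macrophages and 0 lower (background 28.6% and 14.8%). In fibroblasts 4 were also called higher (background 31.4%) and 1 lower (962 of all 6932 genes), so the higher count was not particular to macrophages. Ccl2 and Ccl7 had higher levels in fibroblasts than any of the 6 genes, of which Ccl3 was highest there with 29.2 ± 6.24 CPM. Ccl2 had 575 ± 276 CPM in macrophages and 362 ± 43.9 CPM in fibroblasts, and Ccl7 had 946 ± 533 CPM and 171 ± 31.4 CPM. Of the 16 immediate-early and heat-shock genes, 6 were called higher and 7 lower in macrophages than in the average of the other classes (background 28.6% and 14.8%). Against dendritic cells, 13 were higher in macrophages and 0 lower (background 15.9% and 9.65%). Against T/NK/ILC cells, 12 were higher and 1 lower (background 23.0% and 18.4%), and against B cells 16 and 0 (background 23.1% and 12.1%). The summed share of these genes was 1.44% of UMIs in macrophages, 0.730% in dendritic cells, 0.807% in T/NK/ILC cells and 0.492% in B cells, against 2.43 to 5.0% in stromal classes. Whether dissociation moved the levels of the 6 genes was not tested.

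The genes whose pattern over the 20 class sums was most like that of each gene were myeloid genes for all but Ccl5. By Pearson's r of log2(CPM + 10) over 6115 genes, these were Clec4a1, Ms4a6c and Aif1 for Ccl3 and Spi1, Ccr1 and Il10ra for Ccl4. For Ccl6 they were Arl11, 1300002K09Rik and Clec4n, for Ccl9 Csf1r, Pirb and Arl11, and for Tnf Tyrobp, Acp5 and Lilrb4. For Ccl5 they were Klrb1b, Klrk1 and Rab11fip1, of which Klrb1b and Klrk1 encode lectin-like receptors of NK and T cells. The r values of these 18 genes ranged from 0.940 to 0.977. Among the 6 genes, pairs without Ccl5 had r from 0.887 to 0.961, and pairs with Ccl5 from 0.383 to 0.689. The sums of 1 replicate share a cell suspension and the classes differ in depth, so these values are descriptions.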

How the data were processed

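The authors deposited whole-number UMI counts per gene and barcode for each of 5 collections. Per the submitters' processing notes, STAR 2.6 and the mm10 build were used, while barcode selection, annotation and the counter are not given in the sources used here. From these counts, barcodes were filtered on genes (300 or more) and mitochondrial UMIs (10% or less). Scrublet marked 20 of 6005 barcodes, and these were left out. Cells were clustered in scanpy 1.11.5 (2000 variable genes, 30 components, 15 neighbours, Leiden resolution 1.0, and 0.6 for immune cells alone), with the 6 genes and 70 list genes held out. Clusters were named from fixed markers, at least 3 raised. UMIs were summed per biological replicate and class (73009 to 2353984 UMIs) or immune subcluster (54003 to 277835). Sums were tested with edgeR 4.0.16 in R 4.3.3 (filterByExpr with a minimum count of 10 in 2 sums, TMM, quasi-likelihood F test, two-sided, replicate as a block because both replicates supplied every class). Benjamini-Hochberg adjustment ran over all genes, threshold 0.05. The test was tried on simulated counts. Since the tested cells also defined the clusters, p-values come out smaller than independent cells would give. Folds are printed where every class compared had a UMI. Alternatives included DESeq2 1.42.0. The named genes are the 6, the 3 most similar to each, and listed genes, and the genes and lists were chosen with earlier results of these data known. Marker genes examined in cells rich in Ccl5 were chosen after values were seen.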

Additional observations from a re-analysis of the deposited data

Results flagged for a closer look

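Of 23 sets of 5 collections examined for a lone high or low collection, 5 had one. The limit used gives about 1 in 20 by chance for normally distributed values, which sets with few UMIs are not. A set with UMIs in 1 collection only is always flagged, so the count of 5 cannot be set against that rate. Dendritic cells of collection 2B had 1353 CPM of Ccl4, and 1 cell held 50 of the 70 UMIs there. That cell joined macrophage subcluster 1 when the immune cells were clustered again. Dendritic cells of collection 2A had 975 CPM of Ccl5. The 3 others rest on 1 UMI each, namely Ccl5 in B cells of 1A (8.82 CPM), Ccl6 in T/NK/ILC cells of 2C (14.8 CPM) and Tnf in B cells of 2C (67.0 CPM).

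Barcodes that were left out also held UMIs of all 6 genes. The 1263 barcodes with under 300 genes had 180.0 CPM of Ccl3, 112 CPM of Ccl4, 48.2 CPM of Ccl5, 43.1 CPM of Tnf, 38.0 CPM of Ccl9 and 25.4 CPM of Ccl6, where a count of 0 would allow 7.61 CPM. The 667 barcodes over 10% mitochondrial UMIs had 55.2 CPM of Ccl3, 28.7 CPM of Ccl4, 9.94 CPM of Ccl5, 9.94 CPM of Tnf, 5.52 CPM of Ccl6 and 4.42 CPM of Ccl9, with a limit of 3.31 CPM. These barcodes were given no cell class.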

How the results depend on the processing

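The 6 higher calls in macrophages held under every alternative run. Of 51 called results of single genes in immune classes, pairs and subclusters, 39 were called the same way in every alternative. Ccl6 in dendritic cells against the other classes was among those lost, with split UMIs (adjusted p = 0.200). With UMIs split between clusters and sums, the count of lower genes in T/NK/ILC cells was 0 (main 1), of macrophages below dendritic cells 0 (main 1), of dendritic cells above T/NK/ILC cells 3 (main 5) and above B cells 3 (main 6), and of T/NK/ILC above B cells 2 (main 1). With 500 genes per barcode, B cells had 0 higher (main 1), and T/NK/ILC against B cells 2 higher and 0 lower (main 1 each). Macrophages below dendritic cells numbered 0 with DESeq2 and 0 without the highest doublet scores, where dendritic above B cells numbered 3 and Tnf in dendritic against T/NK/ILC cells reversed to -0.048. Without scaling, T/NK/ILC below B cells numbered 2 (main 1), and with RLE factors 2 genes were lower in macrophage subcluster 1 (main 1). Leaving out 1 collection gave ranges of 0 to 1 for macrophages below dendritic cells (0 without 2A), 1 to 2 for T/NK/ILC above B cells (2 without 2C) and 0 to 2 below (0 without 1A, 2 without 2B), and, for subcluster 1, 0 to 1 higher (0 without 2A or 2C) and 1 to 2 lower (2 without 2C). The replicate block changed no count: without it macrophages still had 6 higher genes.

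Counts of all genes called with split UMIs were 1826 in macrophages (main 3004), 1240 in dendritic cells (main 2265), 1631 in T/NK/ILC cells (main 2758) and 1345 in B cells (main 2417). In macrophage subcluster 1 they were 147 with DESeq2, 274 with no filter and 243 without 2A (main 461), and in the T cell subcluster 233 with DESeq2 and 314, 324 and 307 without 1A, 1B or 2A (main 494). The cause of these changes was not tested. At 800 UMIs per cell the macrophage shares were 59.9% (Ccl3), 27.5% (Ccl4), 4.11% (Ccl5), 23.9% (Ccl9) and 23.7% (Tnf), and T/NK/ILC cells had 28.0% for Ccl5. Without thinning they were 73.2%, 36.9%, 5.03%, 40.3% and 37.7%, with 24.7% for Ccl6 and 28.7% for Ccl5 in T/NK/ILC cells, so depth limits every share. A finer immune clustering redefines the subclusters and is given as levels in the report. With 2 replicates and 1 to 30 UMIs behind many lymphoid and stromal values, small differences there were not detectable.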
